A study of Mus musculus with 7 samples.

Results

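Cytochrome P450 genes were followed in the open chromatin of mouse intestinal stem cells after bone marrow transplantation. The members are the protein-coding RefSeq genes whose symbol is Cyp followed by a number, a letter and a number, such as Cyp3a11. This rule gave 92 genes of 21631 protein-coding genes on chromosomes 1 to 19 and X. Stretches of open chromatin (peaks) were given to the gene whose body holds their summit, or else to the closest protein-coding gene, at most 50000 bp away, and 238 of 103809 regions in the series belonged to a member. A region here is a stretch covered by overlapping peaks of 1 or more libraries.

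P450 enzymes are haem proteins that insert 1 oxygen atom into their substrate with electrons passed on from cytochrome P450 oxidoreductase or, in mitochondria, from ferredoxin. Members of families 1 to 3 oxidise drugs, plant and food compounds and some endogenous lipids, and in the gut they are best known from mature villus enterocytes, where they act on swallowed compounds before these reach the blood. Family 4 hydroxylates fatty acids and eicosanoids, and the remaining families have set tasks in steroid hormone, bile acid, vitamin D and retinoic acid metabolism. Many members stand in tandem arrays of related copies: 70 of the 92 lay in 10 clusters, in which neighbouring members were at most 500000 bp apart, and the largest cluster held 14.

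Accessibility was measured by Omni-ATAC-seq, in which a transposase inserts adapters into open DNA. The cells were Lgr5-positive intestinal stem cells of B6-GFP-Lgr5 mice, sorted 7 days after lethal irradiation and transplantation. Syngeneic recipients (Syn, 3 libraries) were the controls, and allogeneic recipients (Allo, 4 libraries) had BALB/c donors, a mismatch that can cause graft-versus-host disease. All recipients were females of 8 to 12 weeks, and each library held 50000 cells pooled from 3 to 4 mice. All groups were irradiated and transplanted, so a difference between Syn and Allo is one between types of transplant, and mice without transplant were not analysed here.

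The lists held 71925 to 76438 peaks in Syn and 62977 to 88861 in Allo, and the read depth behind them is unknown. The 8 stem cell markers, Lgr5 and Olfm4 among them, and 4 epithelial markers all had a start-site peak in each of the 7 libraries. The same held for 58.8% of all protein-coding genes, so these peaks alone do not show the sort. None of 5 leukocyte markers, Ptprc, Cd3e, Cd3g, Itgam and Lyz2, had one in any library, and Cd3g and Lyz2 had no region at all. Away from the start site Itgam had 11 regions, 6 of them open in all 7 libraries, and Cd3e had 1, open in all 7. Ptprc had 5, with 2, 2 and 2 in Syn 1 to 3 and 1, 2, 5 and 3 in Allo 1 to 4. Summed over the leukocyte list there were 1.27 to 1.84 peaks per 10000 in Allo and 1.31 to 1.49 in Syn. Of 4 enterocyte markers, Alpi, Fabp1 and Sis had a start-site peak in all 7 libraries and Apoa1 in none. Of 3 hepatocyte markers, Ttr had one in all 7 libraries and Alb and Apoh in none. The enterocyte list summed to 1.84 to 2.06 peaks per 10000 in Allo and 1.53 to 1.70 in Syn. The peak names in Allo 3 and Allo 4 follow a different pattern from the rest, and whether all lists were called alike is unknown, so values without this pair are given where they matter.

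Which P450 start sites were open in these cells was examined first. A start site counted as open in a library if a peak touched the RefSeq window of 250 bases before to 50 after the start. Such windows were found for 72 members, and for the other 20, Cyp2u1, Cyp24a1, Cyp17a1 and Cyp7b1 among them, 1000 bp to both sides of either gene end was used, since the strand was not given. By this measure 31 of 92 members (33.7%) were open in all 7 libraries, 14 (15.2%) in some and 47 (51.1%) in none. Among all protein-coding genes 58.8% were open in all 7 and 34.6% in none. The share with any region at all was nevertheless close, 72 of 92 members (78.3%) against 78.7% of all genes.

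The open P450 start sites had few CG dinucleotides. Most promoters that are open in many tissues lie in CpG islands, stretches rich in this dinucleotide, and the windows of all protein-coding genes with a peak in all 7 libraries had a median of 22 CG per 300 bases (quartiles 15 and 30). The 25 P450 windows with a peak in all 7 libraries had a median of 4 (quartiles 1 and 7), and 14 of them held fewer than 5 CG, which was so for 4.35% of all windows open in all libraries. The 40 P450 windows with a peak in no library had a median of 2, close to the 3 of all such windows. Some members have more than 1 window, and neighbouring members are related copies, so windows are not independent and no test was made.

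**Figure D1:**
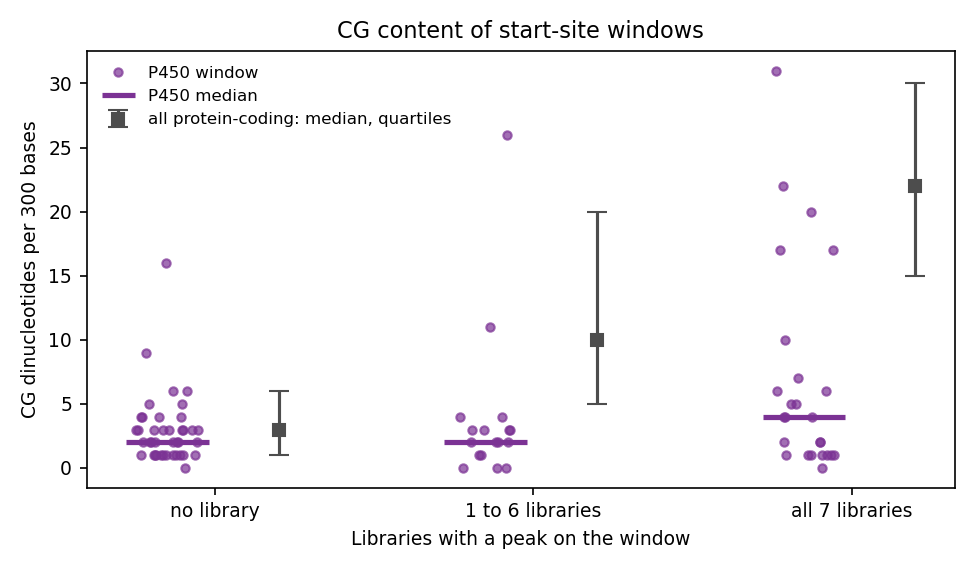
CG dinucleotides in the 300-base windows at start sites, by the number of libraries with a peak on the window; points are single P450 windows, bars their median, and squares with whiskers the median and quartiles of all protein-coding windows. P450 windows open in all 7 libraries center on 4 CG, all protein-coding windows open in all 7 on 22.

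The contrast can be read in the sequences themselves. Shown are the 250 bases before the start from RefSeq (GRCm38.p6, the assembly behind mm10), 5′ to 3′ in the direction of the gene, with each CG in capitals. First come 3 members with a CG-rich start that was open in all 7 libraries: Cyp20a1, an orphan enzyme (chr1:60343050-60343299, plus strand), Cyp2r1, which makes the circulating form of vitamin D (chr7:114562973-114563222, minus strand), and Cyp46a1, the cholesterol hydroxylase of brain (chr12:108334066-108334315, plus strand).

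Cyp20a1: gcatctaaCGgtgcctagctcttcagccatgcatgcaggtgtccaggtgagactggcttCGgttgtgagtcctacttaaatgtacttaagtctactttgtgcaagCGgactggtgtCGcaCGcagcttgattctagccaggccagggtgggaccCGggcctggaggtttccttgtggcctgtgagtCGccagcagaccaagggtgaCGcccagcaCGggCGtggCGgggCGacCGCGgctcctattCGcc
Cyp2r1: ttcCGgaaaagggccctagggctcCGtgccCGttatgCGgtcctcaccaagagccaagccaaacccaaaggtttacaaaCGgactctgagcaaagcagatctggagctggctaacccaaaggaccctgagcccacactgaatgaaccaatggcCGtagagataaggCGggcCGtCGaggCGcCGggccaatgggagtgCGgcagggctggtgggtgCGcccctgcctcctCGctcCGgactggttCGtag
Cyp46a1: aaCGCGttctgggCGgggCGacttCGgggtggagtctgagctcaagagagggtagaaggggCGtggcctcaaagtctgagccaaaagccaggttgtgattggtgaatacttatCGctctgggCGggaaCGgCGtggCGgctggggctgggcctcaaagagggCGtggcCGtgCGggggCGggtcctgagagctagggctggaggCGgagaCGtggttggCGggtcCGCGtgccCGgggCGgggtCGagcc

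They held 15, 16 and 23 CG. The next set has few CG and is shown for the comparison of Syn and Allo: Cyp8b1, the 1 start site past the rank test given further on, which sets the balance of bile acids by making cholic acid (chr9:121916306-121916555, minus strand), and 3 neighbours of the Cyp2c array with differing start-site peaks, Cyp2c65 (chr19:39060756-39061005, plus strand), Cyp2c66 (chr19:39113648-39113897, plus strand) and Cyp2c55 (chr19:39006769-39007018, plus strand), which act on arachidonic acid.

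Cyp8b1: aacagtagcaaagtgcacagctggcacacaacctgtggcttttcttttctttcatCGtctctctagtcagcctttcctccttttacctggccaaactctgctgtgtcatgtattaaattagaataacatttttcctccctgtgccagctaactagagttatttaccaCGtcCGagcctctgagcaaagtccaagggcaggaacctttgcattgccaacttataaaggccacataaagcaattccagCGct
Cyp2c65: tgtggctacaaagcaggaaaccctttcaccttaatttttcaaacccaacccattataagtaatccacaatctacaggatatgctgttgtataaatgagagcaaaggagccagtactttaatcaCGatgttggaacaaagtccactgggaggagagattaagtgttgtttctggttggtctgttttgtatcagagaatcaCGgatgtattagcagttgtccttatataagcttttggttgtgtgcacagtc
Cyp2c66: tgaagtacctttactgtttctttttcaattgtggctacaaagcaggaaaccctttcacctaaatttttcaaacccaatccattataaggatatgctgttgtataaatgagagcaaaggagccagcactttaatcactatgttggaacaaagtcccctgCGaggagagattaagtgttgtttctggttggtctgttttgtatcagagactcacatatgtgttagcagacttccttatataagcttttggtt
Cyp2c55: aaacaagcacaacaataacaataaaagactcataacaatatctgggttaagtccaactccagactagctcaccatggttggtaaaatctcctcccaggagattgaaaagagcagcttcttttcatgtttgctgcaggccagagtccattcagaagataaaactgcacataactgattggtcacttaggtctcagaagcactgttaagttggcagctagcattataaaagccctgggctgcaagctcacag

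These held 4, 2, 1 and 0 CG. Cyp8b1 and Cyp2c65 were open in all 7 libraries, and Cyp2c66 and Cyp2c55 in 4 each. The last pair are well-known inducible drug-metabolising genes that were hardly or not open at the start site, Cyp3a11 (chr5:145879855-145880104, minus strand), the main hepatic and enteric Cyp3a enzyme, and Cyp1a1 (chr9:57697363-57697612, plus strand), the target of the aryl hydrocarbon receptor.

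Cyp3a11: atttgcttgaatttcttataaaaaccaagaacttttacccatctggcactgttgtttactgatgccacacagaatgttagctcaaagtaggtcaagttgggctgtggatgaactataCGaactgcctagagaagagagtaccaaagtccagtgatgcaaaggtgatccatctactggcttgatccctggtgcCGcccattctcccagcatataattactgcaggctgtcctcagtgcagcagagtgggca
Cyp1a1: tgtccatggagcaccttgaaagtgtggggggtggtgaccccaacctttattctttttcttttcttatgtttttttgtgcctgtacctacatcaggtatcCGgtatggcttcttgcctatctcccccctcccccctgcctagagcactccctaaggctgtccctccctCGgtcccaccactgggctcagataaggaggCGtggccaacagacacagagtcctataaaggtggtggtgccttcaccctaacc

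They held 2 and 3 CG, and a peak touched the Cyp3a11 window in Syn 3 alone and the Cyp1a1 window in no library. Outside this window Cyp3a11 had 2 regions open in all 7 libraries, 1557 bp upstream and in its body.

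The amount of open chromatin at P450 genes was lower in Allo in each summary, without passing the test. Peaks assigned to members numbered 172, 184 and 197 in Syn 1 to 3 and 135, 184, 186 and 173 in Allo 1 to 4. Relative to list length this was 24.9 ± 0.93 peaks per 10000 in Syn (SD, n = 3) and 21.9 ± 1.52 in Allo (SD, n = 4), a ratio of 0.881. Allo 1, 3 and 4 lay below every Syn library, at 21.4, 20.9 and 21.2, while Allo 2 with 24.2 lay inside the Syn range of 23.9 to 25.8. The two-sided exact permutation test over the 35 relabellings gave p = 0.0857, and 0.171 after Benjamini-Hochberg adjustment over 4 values per library, where 0.0286 is the smallest p possible. Beside it, the enterocyte marker list was denser in each Allo than in each Syn library, and the stem cell marker list was sparser, with 9.54 to 10.004 peaks per 10000 in Allo and 10.1 to 10.7 in Syn. The 10 shared regions of the enterocyte list had a median rank difference, Allo minus Syn, of -4.07 percentile points, with 0 past the test. For the 55 shared regions of the stem cell list the median was -0.53. In the rank test given further on, 1 of these ranked higher and 0 lower. The higher one was at Ascl2 (difference 40.3, SE 6.75, limma adjusted p = 0.0107). The part of either list in the results on P450 genes was not tested. In a pool of cells, fewer cells with an open site and less opening per cell cannot be told apart.

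Members with at least 1 peak numbered 62, 63 and 66 in Syn and 54, 62, 61 and 60 in Allo (exact permutation p = 0.0857, adjusted p = 0.171). Members with an open start site numbered 38, 43 and 42 in Syn and 33, 42, 37 and 37 in Allo (exact permutation p = 0.171, adjusted p = 0.228). The median rank percentile of P450 peaks within their list, from the −log10 q that the authors give for each peak, was 49.1 ± 2.68 in Syn (SD, n = 3) and 45.9 ± 3.10 in Allo (SD, n = 4; exact permutation p = 0.257). The groups overlapped or touched in all 4 values. Without Allo 1 the differences shrank to -2.67 members with a peak, -2.33 open start sites and -1.74 percentile points, and the last was -1.75 without Syn 1.

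**Figure D2:**
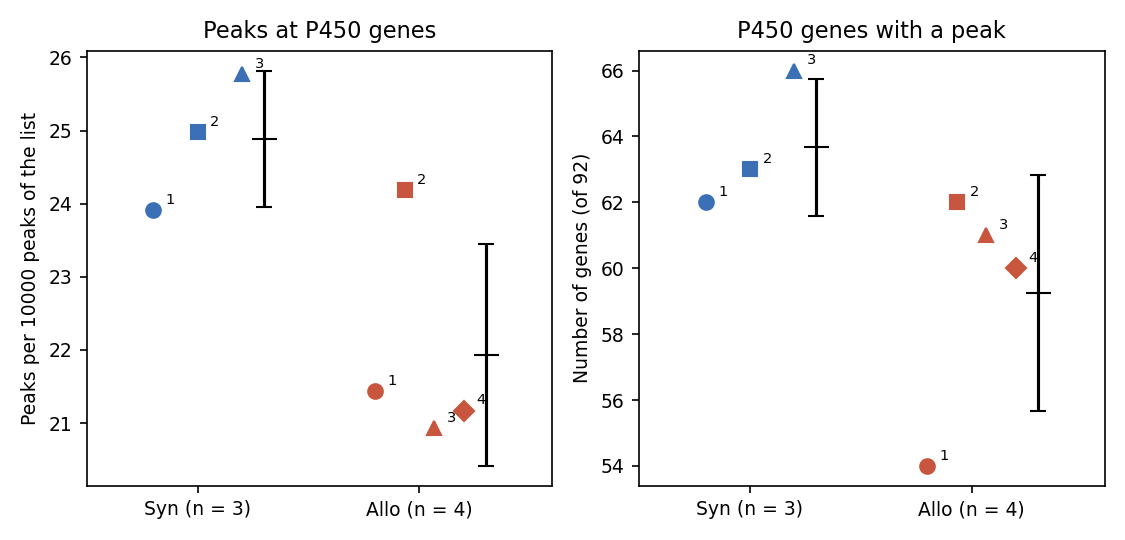
Peaks at P450 genes per 10000 peaks (left) and number of the 92 genes with a peak (right) in each library; numbers name replicates, and the bars give mean and SD of 3 Syn and 4 Allo libraries. Allo 2 lies among the Syn libraries on the left and reaches the lowest Syn value on the right.

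Few P450 regions were present in 1 group only. All 4 Allo and no Syn library held 2 of the 238 regions (0.840%, against 1.14% of all regions). All 3 Syn and no Allo library held 4 (1.68%, against 1.01%). Both shares are near those of all regions. The Allo-only regions lay within Cyp19a1 (aromatase, which makes oestrogens; chromosome 9, 54236232 to 54236660) and at a gene end of Cyp39a1 (an oxysterol hydroxylase; chromosome 17, 43751183 to 43751543). Their list percentiles in Allo 1 to 4 were 2.45, 19.2, 10.3 and 8.32 for Cyp19a1, a weak peak in every Allo library. For Cyp39a1 they were 36.5, 8.48, 57.7 and 47.6. With peaks of a −log10 q of at least 5 neither was Allo-only.

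The Syn-only regions all belonged to families 2 and 3 and ranked low. One lay 2212 bp upstream of Cyp2b10, the classic phenobarbital-induced enzyme (chromosome 7, 25895178 to 25895570), with list percentiles of 10.2, 19.3 and 11.9 in Syn 1 to 3. The region 32000 bp upstream of Cyp3a11 (chromosome 5, 145911787 to 145912154) stood at 5.57, 10.9 and 11.1. Within Cyp2c69 (chromosome 19, 39866151 to 39866456) the values were 11.6, 27.0 and 24.3. The last, 16265 bp upstream of Cyp2j5, an arachidonic acid epoxygenase (chromosome 4, 96680334 to 96680746), stood at 4.28, 15.0 and 13.1.

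Allo 2 held some P450 regions that the other Allo libraries lacked. Of the 238 P450 regions, 7 (2.94%) were open in all Syn libraries and in Allo 2 but in no other Allo library, against 0.932% of all regions. Of these, 4 lay in the Cyp2c array on chromosome 19, and they included the start sites of Cyp2c66 (list percentiles 55.4, 50.6 and 52.5 in Syn 1 to 3 and 41.2 in Allo 2), Cyp2c70, which makes muricholic acids in mice (39.3, 62.8 and 55.7, and 35.8 in Allo 2), and Cyp2c38 (48.2, 44.7 and 48.9, and 15.4 in Allo 2). These peaks stood near the middle of the Syn lists. No P450 region was open in all Syn libraries and, among Allo, in Allo 1 alone or Allo 3 alone, against 0.0308% and 0.333% of all regions. For Allo 4 alone there was 1, at Cyp4f15 (0.420%, against 0.272%). Without Allo 2 the Syn-only regions of members numbered 11 (4.66% of member regions, against 1.98% of all), and without Allo 3 and 4 they numbered 6 (2.75%, against 3.07%).

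By subfamily, the 15 Cyp2c genes had a summed region count of 16, 17 and 15 in the Syn libraries, against 8, 15, 10 and 10 in Allo 1 to 4. The 7 Cyp3a genes held 21, 22 and 23 in Syn and 12, 18, 18 and 16 in Allo. The 7 Cyp2j genes held 14, 14 and 13 in Syn and 8, 12, 13 and 11 in Allo. The groups touched for Cyp2c, at 15, and for Cyp2j, at 13. The 9 Cyp4f genes, fatty acid and leukotriene hydroxylases, held 31, 33 and 34 in Syn and 27, 30, 34 and 31 in Allo, with overlap. The counts also overlapped for Cyp2b, with 10, 11 and 12 in Syn and 6, 10, 9 and 11 in Allo, and for Cyp2d, with 8, 8 and 10 in Syn and 7, 9, 9 and 8 in Allo. Allo 1, whose list was the shortest, was lowest in all 6 subfamilies.

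**Figure D3:**
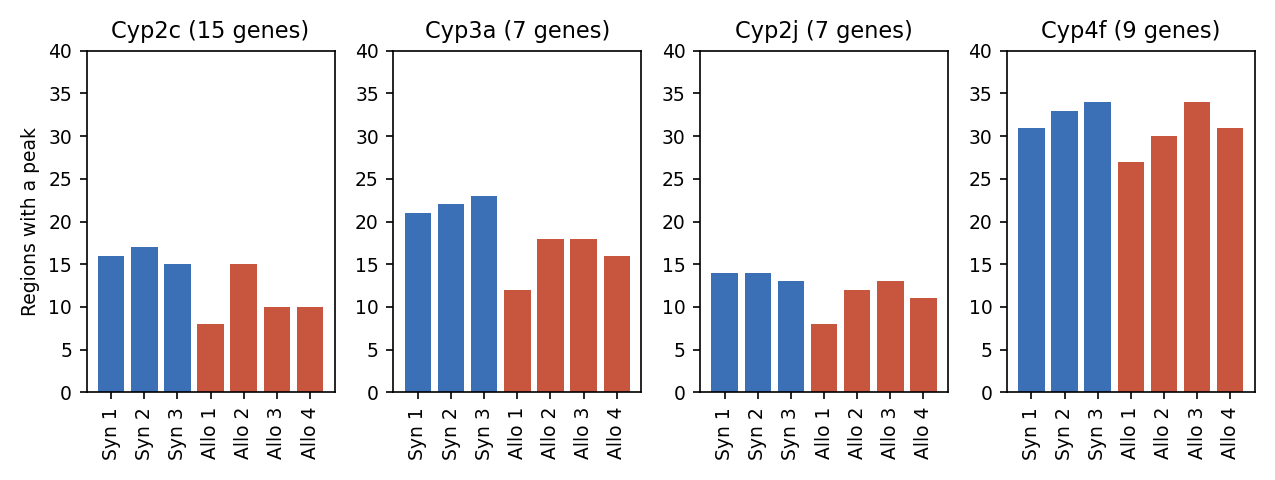
Number of regions with a peak in each library for 4 P450 subfamilies, Syn in blue and Allo in red. Cyp2c shows 8, 15, 10 and 10 regions in Allo 1 to 4 against 15 to 17 in Syn, touching at 15, and the Cyp4f counts of the groups overlap.

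Regions open in every library were then compared by rank, which covers only sites where a peak was called in each library. The 50324 regions open in all 7 libraries were ranked by −log10 q within each library, so that all lists had the same length, and the percentiles (100 is the strongest) were compared with limma over all these regions. Of 112 P450 regions, 7 (6.25%) ranked lower in Allo and 1 (0.893%) ranked higher at an adjusted p under 0.05. Over all shared regions 1.57% ranked lower and 1.33% higher. At an unadjusted p under 0.05, 30 P450 regions were lower and 5 higher, against 10.4% lower and 9.44% higher of all. Every Allo library ranked below every Syn library at 18 P450 regions (16.1%, against 8.86% of all) and above at 5 (4.46%, against 8.41%). The median difference, Allo minus Syn, was -2.73 percentile points over the P450 regions and 0.15 over all. With percentiles taken within each library's own list, the split over all regions moved from 792 lower and 667 higher to 51 lower and 181 higher, with a median of 0.44 over all and -2.75 over P450 regions.

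The number of regions past the threshold rested on single libraries, while the median did not. It fell to 0, 1 and 1 without Syn 1, 2 and 3, and to 3, 2 and 2 without Allo 1, 3 and 4. Without Allo 1, 1 region was lower (0.806%, against 0.648% of all) and 2 were higher, where 0.641% of all ranked higher. Without Allo 3, 2 were lower and 0 higher, and without Allo 4, 1 was lower and 1 higher. Without Allo 2 the number rose to 16, of which 15 were lower. Calls over all shared regions moved in the same directions. They were 0.0955% lower and 0.136% higher without Syn 1, against 1.57% and 1.33% with all libraries. Without Allo 2 they were 4.2% lower and 3.09% higher, against 13.4% lower of the P450 regions. The number of P450 regions past the threshold was 0 on the own-list scale and 0 without Allo 3 and 4 (limma; at an unadjusted p under 0.05, 21 lower and 4 higher, and 20 lower and 5 higher). The share of all regions past the unadjusted p is not given here for either setting, so those unadjusted counts have no background. Over all regions 0.39% ranked lower and 0.467% higher without Allo 3 and 4. The median difference stayed between -3.26 and -1.96 when any 1 library was left out and was -2.77 without Allo 3 and 4.

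By family, most of the lower regions belonged to families 1 to 3. There, 49 of 59 shared regions had a lower mean in Allo and 10 a higher one, with a median of -6.26 percentile points, and 5 passed the test, all lower. A lower mean in Allo was found for 48.8% of all shared regions and 65.2% of the P450 regions. In family 4, 12 of 31 were lower and 19 higher, with a median of 1.03, and 1 passed, lower. Within families 1 to 3 the shared regions of Cyp2c (7 of 7), Cyp2d (7 of 7) and Cyp3a (9 of 9) were all lower in mean, as were 7 of 8 for Cyp2j and 5 of 6 for Cyp2b. The medians were -15.2, -10.5, -8.67, -14.1 and -20.9. The medians of families 1 to 3 and of family 4 kept their signs on the own-list scale (-4.93 and 0.88) and without Allo 3 and 4 (-6.86 and 0.58). The sizes moved with single libraries: Cyp3a stood at -3.62 without Syn 2, Cyp2d at -6.01 without Syn 1, and family 4 at 1.76, 0.48, 0.63 and 0.43 without Allo 1, 2, 3 and 4. Without Allo 3 and 4 together, Cyp2b stood at -11.7, Cyp2j at -8.60 and Cyp3a at -4.22. Of the 25 Cyp4f regions, 8 were lower. Neighbours in an array are related copies, so these counts are not of independent genes, and the difference between families was not tested.

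**Figure D4:**
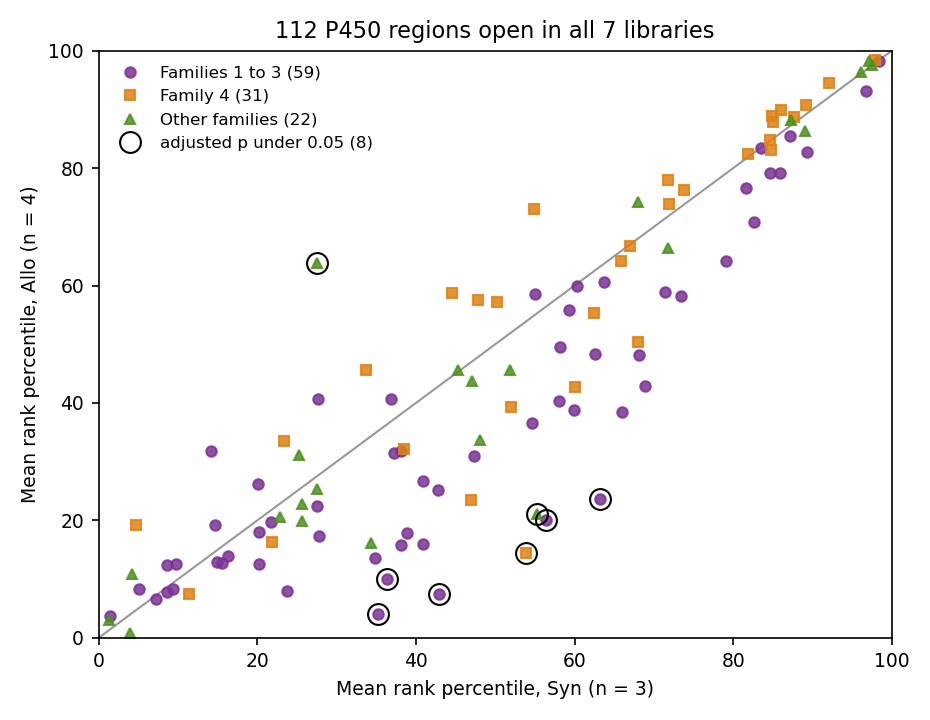
Mean rank percentile of the 112 P450 regions open in all 7 libraries, Syn (n = 3) against Allo (n = 4); colours give the families, rings the 8 regions past an adjusted p of 0.05, and the line equality. Regions of families 1 to 3 lie mostly below the line, 49 of 59, and those of family 4 on both sides.

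Of the 7 regions that ranked lower, 4 lay upstream of the gene start, 2 in a gene body and 1 downstream, and 1 of the 7, at Cyp8b1, was at a start site. The other 6 were among 82 P450 regions away from start sites (7.32%, against 2.00% of all such regions ranked lower). All 4 Allo values lay below all 3 Syn values in each of the 7. Whether a region in a body was exonic or intronic was not analysed here.

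Cyp2j11 and Cyp2j5, of the Cyp2j array on chromosome 4, each had 1. In the body of Cyp2j11 (96330439 to 96331205) the percentiles were 35.5, 44.3 and 26.1 in Syn 1 to 3 and 7.11, 1.81, 2.39 and 4.88 in Allo 1 to 4, a difference of -31.2 (SE 5.67, adjusted p = 0.0148). At 17011 bp upstream of Cyp2j5 (96680841 to 96681532) they were 58.0, 32.7 and 37.9 in Syn and 1.67, 15.7, 4.26 and 8.08 in Allo, a difference of -35.4 (SE 7.01, adjusted p = 0.0197). The Allo libraries were at the bottom of the ranking at both sites, and the Syn-only region of Cyp2j5 lies just beside the second.

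In the Cyp2b array on chromosome 7 the groups separated at Cyp2b10 and Cyp2b19. At 8281 bp upstream of Cyp2b10 (25889081 to 25889936) the Syn percentiles were 61.1, 54.7 and 53.6 and the Allo percentiles 15.6, 42.8, 15.0 and 7.06 (difference -36.3, SE 8.49, adjusted p = 0.0370). Allo 2 stood nearest to Syn here. At 819 bp downstream of Cyp2b19, an epoxygenase known from skin (26772902 to 26773815), Syn had 27.2, 42.1 and 39.7 and Allo 15.6, 6.63, 8.48 and 9.59 (difference -26.3, SE 6.01, adjusted p = 0.0340).

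Cyp2c55, at the edge of the Cyp2c array, ranked lower at 1589 bp upstream of its start (chromosome 19, 39004745 to 39005527), with 68.9, 56.7 and 64.1 in Syn and 1.67, 48.3, 11.4 and 33.5 in Allo (difference -39.5, SE 9.91, adjusted p = 0.0470). Allo 2 was again the highest of the Allo libraries. The peak on its start-site window was present in Syn 2, Syn 3, Allo 2 and Allo 3. The neighbouring start of Cyp2c65 had 66.2, 60.9 and 60.5 in Syn and 51.3, 45.7, 49.8 and 46.5 in Allo, without overlap, but did not pass (difference -14.2, SE 5.84, adjusted p = 0.189).

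Cyp8b1 was the 1 gene whose start site itself ranked lower. The region around it (chromosome 9, 121916124 to 121916687) stood at 48.4, 53.9 and 63.4 in Syn and 21.8, 26.2, 15.0 and 21.1 in Allo (difference -34.2, SE 7.02, adjusted p = 0.0227). It is the start shown above with 4 CG, and the nearest other protein-coding gene, Ackr2, was 5237 bp from the summit. Cyp4v3, a fatty acid hydroxylase, had a region in its body (chromosome 8, 45321055 to 45321801) with 46.5, 58.8 and 56.4 in Syn and 12.6, 42.4, 1.66 and 0.964 in Allo (difference -39.5, SE 9.34, adjusted p = 0.0383). Its spread in Allo was wide, with Allo 2 close to Syn.

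The region that ranked higher lay 9755 bp upstream of Cyp11a1, the side-chain cleavage enzyme that starts steroid synthesis and supplies local glucocorticoids in gut epithelium (chromosome 9, 57988004 to 57988729). Its percentiles were 26.1, 29.1 and 27.2 in Syn and 53.1, 67.6, 78.3 and 56.6 in Allo (difference 36.4, SE 7.39, adjusted p = 0.0219). The start site of Cyp11a1 was open in all 7 libraries, at 64.1, 70.9 and 68.9 in Syn and 71.1, 72.7, 78.9 and 74.4 in Allo, without overlap and without passing the test (difference 6.30, SE 3.69, adjusted p = 0.366). The next largest upward differences did not pass the test: 18.2 in the body of Cyp4f14 (adjusted p = 0.0768), 17.7 downstream of Cyp1a2 (adjusted p = 0.175), 14.4 in Cyp4f39 (adjusted p = 0.129) and 14.2 upstream of Cyp4b1 (adjusted p = 0.247).

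Each of the 8 kept its direction in every alternative in which it could be measured, but none of the 8 calls was kept in all of them. Cyp2j11, Cyp2j5 and Cyp4v3 were not open in all libraries at equal list length, nor were Cyp2j5, Cyp4v3 and Cyp2c55 at a −log10 q of at least 5. Without 1 library at a time, Cyp2j11 passed in 5 of 7 fits (adjusted p between 0.0123 and 0.0593), Cyp2j5 and Cyp11a1 in 3 of 7, and the other 5 in 1 of 7. Without Allo 3 and 4 none of the 8 passed. There the difference was still -31.5 at Cyp2j11 (adjusted p = 0.0660), -34.6 at Cyp2j5 (adjusted p = 0.0840) and 32.5 at Cyp11a1 (adjusted p = 0.0719).

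**Figure D5:**
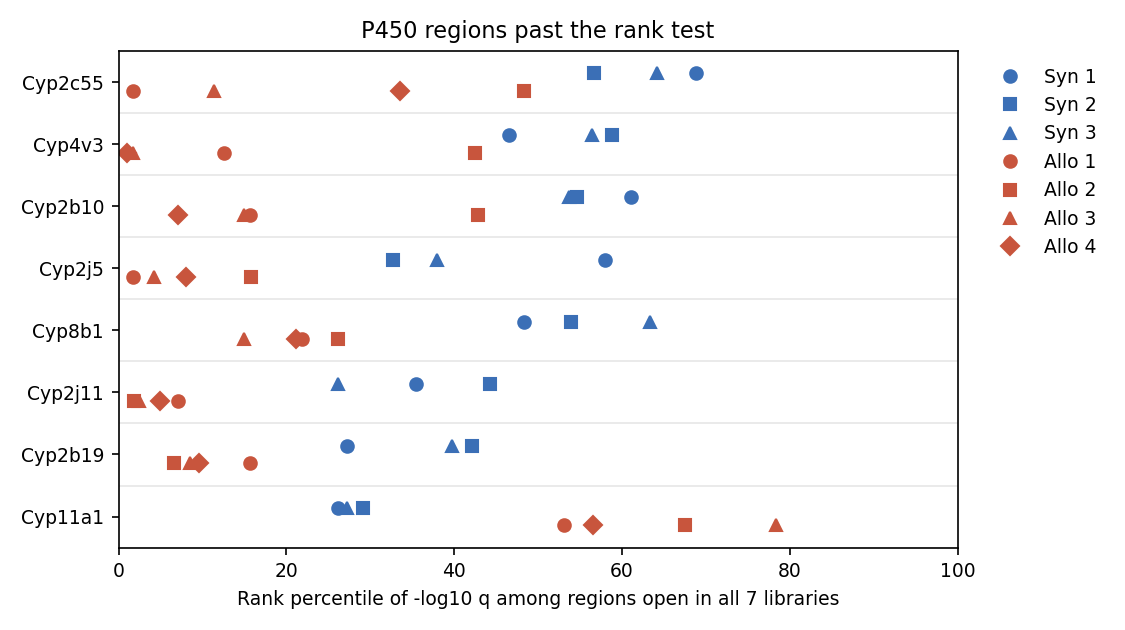
Rank percentile in each library of the 8 P450 regions past an adjusted p of 0.05, named by their gene; blue symbols are Syn and red Allo libraries, with 1 shape per replicate number. All Allo points lie left of all Syn points except at Cyp11a1, where they lie right, and Allo 2 is the rightmost Allo point at Cyp2c55, Cyp4v3, Cyp2b10, Cyp2j5 and Cyp8b1.

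Beyond these 8, no P450 region passed the rank test. The strongest P450 regions in these cells were at the start sites of Cyp20a1, Cyp46a1 and Cyp2r1 and at a gene end of Cyp4f17 and of Cyp2u1, a fatty acid hydroxylase, for which the end that holds the start was not determined. At the Cyp2u1 end the percentiles were 98.9, 96.8 and 99.5 in Syn and 95.7, 97.8, 99.8 and 99.4 in Allo (difference -0.21, SE 1.12, adjusted p = 0.947). At Cyp20a1 they were 95.6, 97.9 and 98.0 in Syn and 99.2, 96.2, 99.4 and 98.3 in Allo (difference 1.15, SE 1.06). Near the top of the scale a rank can move little. Cyp2s1, an epithelial enzyme, had the most regions, 14, of which 8 were open in all libraries, and its start stood at 96.2, 97.7 and 96.6 in Syn and 91.0, 97.3, 94.7 and 89.5 in Allo (adjusted p = 0.218). Cyp3a13, a Cyp3a gene that stands apart from the array, had 9 regions, and its start differed by -1.71 (SE 1.85, adjusted p = 0.661). At 1557 bp upstream of Cyp3a11 the percentiles were 82.4, 74.4 and 80.4 in Syn and 61.7, 75.7, 52.4 and 67.0 in Allo (difference -14.9, SE 4.98, adjusted p = 0.114). The region in the Cyp3a11 body differed by -12.5 (SE 5.53, adjusted p = 0.224).

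In vitamin D metabolism the start of Cyp2r1 differed by 0.16 percentile points (SE 1.07, adjusted p = 0.958). Cyp27b1, which makes the active hormone, had 1 region, in its body, at 56.7, 43.7 and 43.7 in Syn and 39.7, 24.7, 28.3 and 42.0 in Allo (difference -14.4, SE 7.47, adjusted p = 0.304). Each Allo value was below each Syn value, but the test was not passed. At Cyp24a1, which degrades the hormone, the libraries of Syn held 5, 4 and 6 regions and those of Allo 2, 5, 4 and 4.

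The retinoic acid hydroxylases were little open. For Cyp26b1 the counts of regions were 4, 4 and 5 in Syn libraries and 2, 5, 4 and 4 in Allo libraries, and the 2 that all libraries held differed by -3.26 (SE 6.88) and 0.30 (SE 6.84). Cyp26a1 and Cyp26c1 had no region open in all libraries, and the Cyp26a1 start window, with 26 CG, was touched by a peak in Allo 4 alone.

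Among bile acid genes, the start of Cyp27a1, a sterol hydroxylase, stood at 58.0, 51.4 and 46.2 in Syn and 44.9, 48.8, 50.1 and 38.9 in Allo (adjusted p = 0.661). Cyp7b1, an oxysterol hydroxylase, had 1 weak region at 2.55, 6.70 and 3.43 in Syn and 21.8, 11.2, 4.26 and 6.36 in Allo (adjusted p = 0.479). Both overlapped between the groups. In steroid synthesis Cyp17a1 had 3 regions in every library, and the one at a gene end differed by -5.78 (SE 6.61, adjusted p = 0.682). Cyp11b1 and Cyp11b2 had none.

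The aryl hydrocarbon receptor targets Cyp1a1 and Cyp1b1 were closed at the start window and open beside it. Cyp1a1 had 2 shared regions within its RefSeq span, 57691592 to 57692319 and 57696124 to 57697174. Both lie before the start window shown above, which begins at 57697363. The second was the stronger, at 57.8, 67.5 and 65.9 in Syn and 55.3, 46.1, 72.5 and 68.3 in Allo (difference -3.16, SE 6.48, adjusted p = 0.838). At 937 bp from Cyp1b1 the percentiles were 82.3, 86.5 and 85.1 in Syn and 76.8, 78.0, 85.1 and 77.1 in Allo (difference -5.39, SE 2.57, adjusted p = 0.261).

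Of the genes that serve the P450 system, most were open and few regions passed the test, where over all shared regions 1.57% ranked lower and 1.33% higher. Of 14 regulators of P450 genes, such as Ahr, Nr1i2 and Hnf4a, all had a start-site peak in all 7 libraries, and of their 84 shared regions 1 ranked lower, at Nr1i3, which encodes the receptor CAR (difference -14.1, SE 3.15, adjusted p = 0.0314), and 0 higher. Of 9 genes of electron transfer and haem supply, 8 had a start-site peak throughout, and of 34 shared regions 1 ranked higher, at Cyb5b (difference 14.5, SE 2.47, adjusted p = 0.0112). Of 16 genes of conjugation and export, 12 had a start-site peak throughout, and of 47 shared regions 2 ranked lower. These were at the drug exporters Abcg2 (difference -37.4, SE 6.75, adjusted p = 0.0146) and Abcc3 (difference -32.6, SE 7.84, adjusted p = 0.0403). Abcg2 also had an Allo-only region (chromosome 6, 58677873 to 58678222), as had Rxra among the regulators, and Abcc2 had a Syn-only one. The medians of the 3 lists were 0.03, -1.41 and -2.45 percentile points in this order. The conjugation and export list had 8.44 to 9.46 peaks per 10000 in Allo and 10.2 to 10.9 in Syn. In the other lists the groups overlapped. The regulators had 14.5 to 16.4 in Allo and 15.3 to 15.85 in Syn, and electron transfer and haem supply 5.40 to 6.51 and 6.12 to 6.54.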

How the data were processed

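Omni-ATAC-seq peak lists of 7 libraries were used, each library with a list of its own. Trim Galore, Bowtie2, MACS2 and MACS3 and the build mm10 appear, without roles, per the submitters' processing notes. Peak threshold and read shift: not given in the sources used here. For each peak the authors deposited its score, its fold enrichment as a ratio, −log10 of the p-value and of the q-value, and its summit; of these, −log10 q (lowest 1.30) and the summit were used. Read counts were not used, so depth is unknown.

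Overlapping peaks (1 bp or more) were joined. Gene positions are from RefSeq GRCm38.p6, without exons. The members and lists were chosen with earlier results of these data known. Named were a fixed set of 23 members, those with regions in 1 group only or past the rank test, and those with most or strongest regions, not all of which are printed. One marker gene of the lists is not reported here.

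Values per library were compared by two-sided exact permutation. Ranks of the 50324 shared regions were compared with limma 3.58.1 (trend, Benjamini-Hochberg over all, threshold 0.05), which was checked on simulated data. Replicates are numbered in the labels and were taken as independent pools of mice. Alternatives tried: only peaks with −log10 q from 5, equal list length, summit windows, other assignment, other rank scales, a block and leaving out libraries. Python 3.11.15, pandas 2.3.3 and R 4.3.3 were used.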

Additional observations from a re-analysis of the deposited data

Results flagged for a closer look

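Among the 4 Allo libraries, Allo 2 stood apart in the density of peaks at P450 genes, with 24.18 peaks per 10000 against 20.9 to 21.4 in the other 3. Its gap to the nearest of them was 0.845 of the whole range, above Dixon's limit for 4 values. This was 1 of 14 sets of Allo values looked at, where chance gives about 1 in 20. Without Allo 2 the difference between Allo and Syn was -3.71 peaks per 10000 (exact permutation p = 0.1, the smallest possible there), and with it -2.96. What sets Allo 2 apart was not tested.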

How the results depend on the processing

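The 4 values per library (density, members with a peak, members with an open start site, median rank percentile) stayed lower in Allo in each alternative, and 1 crossed the threshold: the median rank percentile differed by -4.37 with genes within 10000 bp (exact permutation p = 0.0286). With summits in gene bodies only, the density difference shrank to -0.55 (exact permutation p = 0.343). Allo-only regions numbered 2, and 0 at a −log10 q of at least 5, 1 at equal list length and 4 without Allo 1 and 2. Those 4 were 1.69% of member regions, against 6.9% of all regions. Over all regions the Allo-only number was 1183, and 1052 at a −log10 q of at least 5 and 958 at equal list length. Syn-only regions numbered 4, and 13 without Allo 1 and 2 (5.51%, against 2.21% of all). They numbered 1 with gene bodies only, 2 within 10000 bp and 4 to 11 without 1 library at a time. Regions with a rank difference numbered 8, and 5 at a −log10 q of at least 5, 5 at equal list length and 2 with gene bodies only. In the first 3 of these settings 6.25%, 3.96% and 4.44% of P450 regions ranked lower, against 1.57%, 1.28% and 1.19% of all. P450 regions with a rank difference numbered 0 on the own-list scale, 0 without Allo 3 and 4 and 0 to 16 without 1 library at a time. There were 23 without Allo 1 and 2, with fewer Allo libraries but more shared regions. Of these, 21 ranked lower (16.8% of P450 regions, against 5.83% of all) and 2 higher, where 4.72% of all ranked higher. The cause of these changes was not tested.

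Replicate numbers are shared between Syn and Allo, but deviations of same-numbered libraries correlated by 0.0494, -0.0403 and 0.0539, so the numbers were not taken as pairs. With the replicate block, which drops Allo 4, 3 regions kept a rank difference, and the density difference was -2.71 (exact sign-flip p = 0.25, the smallest possible). Depth is unknown, so a missing weak peak cannot be told from a closed site.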

Other observations

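Short motifs were searched on both strands in the 82 start-site windows of members with a RefSeq window, beside the 21045 windows of all protein-coding genes. The TATA box letters TATAAA were in 32 member windows (39.0%) and in 12.7% of all windows. The nuclear receptor core AGGTCA was in 22 (26.8%) and 14.6%, and AGTTCA, which overlaps it in part, in 13 (15.9%) and 12.4%. The aryl hydrocarbon receptor core GCGTG, which contains a CG, was in 16 (19.5%) and 38.8%, including windows of Cyp1a1 and Cyp1b1. The HNF1 core GTTAAT was in 10 (12.2%) and 6.25%. Of the 25 member windows open in all libraries 4 held TATAAA, and of the 40 open in none 18 did. A match is a description of letters and not of a bound site.

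Near-identical copies can make reads ambiguous. Of 72 members with a window, 4 had a window that matched another member's in at least 90% of bases without gaps: Cyp2b9 and Cyp2b13 (99.3%), of which neither had a region, and Cyp3a25 and Cyp3a59 (96.3%), which had 6 and 5. Windows were compared base by base at the same position, so copies shifted by inserted or missing bases were not detected. The sequences of Cyp2c65 and Cyp2c66 shown above share long stretches at shifted positions. By this measure the closest window to that of Cyp2c66 was nevertheless that of Cyp4f14, at 30.7%. How reads with several matches were handled is unknown here, so values at these 4 genes are uncertain. For shifted copies, such as those in the Cyp2c array, this was not tested.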
